A study of Mus musculus with 8 samples.

Results

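Imprinted genes of embryo and placenta were followed in Runx1 wild-type and knockout mouse embryos. The list held 36 genes, and 34 of them were measured, out of 18193 genes that the arrays measured with at least 1 probe set of their own. For each gene the probe set with the highest mean over all 8 arrays was used. Of the measured members, 17 are expressed from the paternal allele, 16 from the maternal allele, and Gnas gives transcripts of either kind. H19 was represented by a probe set that the annotation assigns to several genes, and Slc22a3 by no probe set named here, so neither has a value. The arrays measure the sum of the alleles and do not show which parental copy was active.

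An imprinted gene is transcribed mainly from the copy inherited from the father or mainly from the copy inherited from the mother. At many imprinted genes, DNA methylation laid down in the germ line distinguishes the parental copies. Many of these genes sit in clusters that share a control region, and many act in the placenta, where paternally expressed genes such as Igf2 tend to promote growth and maternally expressed genes such as Phlda2 and Cdkn1c tend to restrain it. For some of them, the imprint is seen mainly in extraembryonic tissue.

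The samples were embryo propers on a BALB/c background, taken at embryonic day 8.5 (E8.5) or 12 (E12). Each stage had 2 arrays of wild-type embryos and 2 arrays of Runx1 knockout embryos, which gave 4 groups and 8 Affymetrix whole-genome mouse arrays of amplified total RNA. Definitive blood formation requires Runx1, which encodes a transcription factor, and the comparisons ask which genes differ without it at each stage. The study's methods call the 2 arrays of a group biological replicates, and p-values measure no more than the spread among these samples. Levels are log2 intensities, and a difference of 1 on this scale is a 2-fold difference. Detection calls were not used here, so a level near or below an array's median may be background, and differences that involve such levels are given without a fold.

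The 6 probe sets of Runx1 did not serve as a check of the labels. In the knockout arrays they were 0.07 to 1.03 higher at E8.5 and between -0.23 and 0.26 from wild type at E12, with no adjusted p under 0.05, and the sources used here do not say which part of the transcript the knockout allele lacks. Bright probe sets were brighter in the E8.5 arrays, whose 99th percentile was 12.24 to 12.30, than in the E12 arrays (10.51 to 11.09). The direction of each stage difference was therefore examined under other scalings. Replicate 1 of the E8.5 wild type stood apart from the other E8.5 arrays. The summed intensity of 16 measured trophoblast markers (of 23 listed) was 36450 there, against 1795 to 4027 in the remaining arrays of that stage and 601 to 771 at E12. In that array 8 of the 16 markers were above a log2 level of 8, and Tpbpa, a marker of spongiotrophoblast, read 9.52 there against 4.15 to 4.24 in the other E8.5 arrays. Markers of the embryo proper (14 of 15 measured) summed to 522 there, against 1617 to 1949 in the rest of the stage. Decidual markers (12 of 13) summed to 799.7 there, against 1059 to 1210. Hand2, which weighs heavily in these sums, read 5.473 there against 8.197 to 9.104. The single markers went both ways among the E8.5 arrays. Hand2, Pgr, Bmp2, Hoxa10 and Hoxa11 were lowest in that array, and Cebpb, Alpl, Angpt2, Adamts5 and Mmp3 were highest. Prl8a2 (7.687 there, 6.903 to 8.492 in the other E8.5 arrays) and Wnt4 were neither. Cebpb read 7.335 there against at most 5.596. Whether that array held less decidua was not tested. Yolk sac endoderm markers (14 of 15) were high in every E8.5 array. They summed to 39090 in replicate 1 of the wild type, 57940 to 76250 in the other E8.5 arrays and 3352 to 4411 at E12. Their part in the stage differences of the members was not tested. In bulk tissue, fewer cells of a type and less RNA per cell cannot be told apart.

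Promoter sequence is shown for 5 members, because DNA methylation is placed mainly on CpG dinucleotides. Whether these windows carry the mark of an imprint was not tested. Ascl2, Sfmbt2 and Plagl1 differed most between the wild-type replicates of E8.5, Phlda2 had the largest fall between stages, and Nnat had the largest rise in wild type among members with a sequence. RefSeq promoter windows (assembly GRCm38.p6) were available for 27 of the 34 measured members. The 250 bases before the start of Phlda2 (chr7:143502525-143502774, minus strand) and Ascl2 (chr7:142969265-142969514, minus strand) hold 21 and 19 CpG dinucleotides. Those of Sfmbt2 (chr2:10370201-10370450, plus strand), Nnat (chr2:157559828-157560077, plus strand) and Plagl1 (chr10:13090582-13090831, plus strand) hold 8, 12 and 19. Sfmbt2 has a further window (chr2:10372186-10372435), with 15 CpG, which is not shown. Each sequence is written 5′ to 3′ on the strand of the gene, with each CpG in capitals.
Phlda2: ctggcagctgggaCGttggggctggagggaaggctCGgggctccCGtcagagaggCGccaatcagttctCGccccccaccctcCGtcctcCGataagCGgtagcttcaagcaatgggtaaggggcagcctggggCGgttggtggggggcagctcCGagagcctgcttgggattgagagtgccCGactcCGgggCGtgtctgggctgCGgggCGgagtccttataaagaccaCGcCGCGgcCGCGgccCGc
Ascl2: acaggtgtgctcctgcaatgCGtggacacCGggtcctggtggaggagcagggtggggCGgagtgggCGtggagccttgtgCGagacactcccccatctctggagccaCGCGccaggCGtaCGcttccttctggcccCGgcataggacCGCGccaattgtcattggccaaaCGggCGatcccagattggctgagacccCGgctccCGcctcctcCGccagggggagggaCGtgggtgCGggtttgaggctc
Sfmbt2: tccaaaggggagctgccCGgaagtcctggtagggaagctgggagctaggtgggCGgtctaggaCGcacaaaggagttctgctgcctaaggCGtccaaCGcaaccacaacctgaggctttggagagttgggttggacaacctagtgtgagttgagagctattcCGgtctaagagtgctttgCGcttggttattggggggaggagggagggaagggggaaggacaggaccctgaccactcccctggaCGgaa
Nnat: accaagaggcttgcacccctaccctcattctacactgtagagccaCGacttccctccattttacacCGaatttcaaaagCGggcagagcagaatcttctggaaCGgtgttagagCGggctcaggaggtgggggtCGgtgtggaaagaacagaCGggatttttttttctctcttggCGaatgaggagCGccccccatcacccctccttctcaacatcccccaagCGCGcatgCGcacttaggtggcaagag
Plagl1: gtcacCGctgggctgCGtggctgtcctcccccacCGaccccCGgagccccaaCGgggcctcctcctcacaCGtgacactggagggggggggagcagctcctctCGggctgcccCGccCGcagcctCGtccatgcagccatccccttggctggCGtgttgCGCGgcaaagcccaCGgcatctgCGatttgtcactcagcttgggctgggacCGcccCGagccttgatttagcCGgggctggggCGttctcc

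Across 32851 windows of 27025 genes the median was 6 CpG, and across 48 windows of the 27 members it was 9. The letters TGCCGC, the hexamer that ZFP57 binds when methylated, were found on either strand in 7 of the 48 member windows (14.6%) and in 8.68% of all windows. The member windows belonged to Calcr, Meg3, Mest, Osbpl5, Plagl1 and Zim1. TGTGGT, a core RUNX motif, was found in 8 of the 48 (16.7%, against 14.0% of all), and TGCGGT, its variant, in 2 (4.17%, against 5.1%). The window of Sfmbt2 that is shown holds TGTGGT on the opposite strand, its further window does not, and those of Phlda2, Ascl2, Nnat and Plagl1 hold neither RUNX motif. The window of Phlda2 holds TATAAA, the core of a promoter element bound by the basal transcription machinery, which 12.4% of all windows hold. TGCCGC occurs in the window of Plagl1 on the opposite strand. Matches of different motifs were counted separately also where they overlap, and a match describes letters only.

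Between replicates 1 and 2 of the E8.5 wild type, 14 members differed by more than 1 (log2), 2 of them higher and 12 lower in replicate 1, while 15.6% of all probe sets did so. In the E8.5 knockout 3 members differed by that much, against 2.96% of all probe sets. At E12 it was 1 member in wild type (5.24% of all) and 0 in the knockout (0.0999% of all). The E8.5 wild type, which holds the array with the trophoblast markers, had the most members with such a difference. A difference between 2 arrays does not tell which of them departed.

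**Figure D1:**
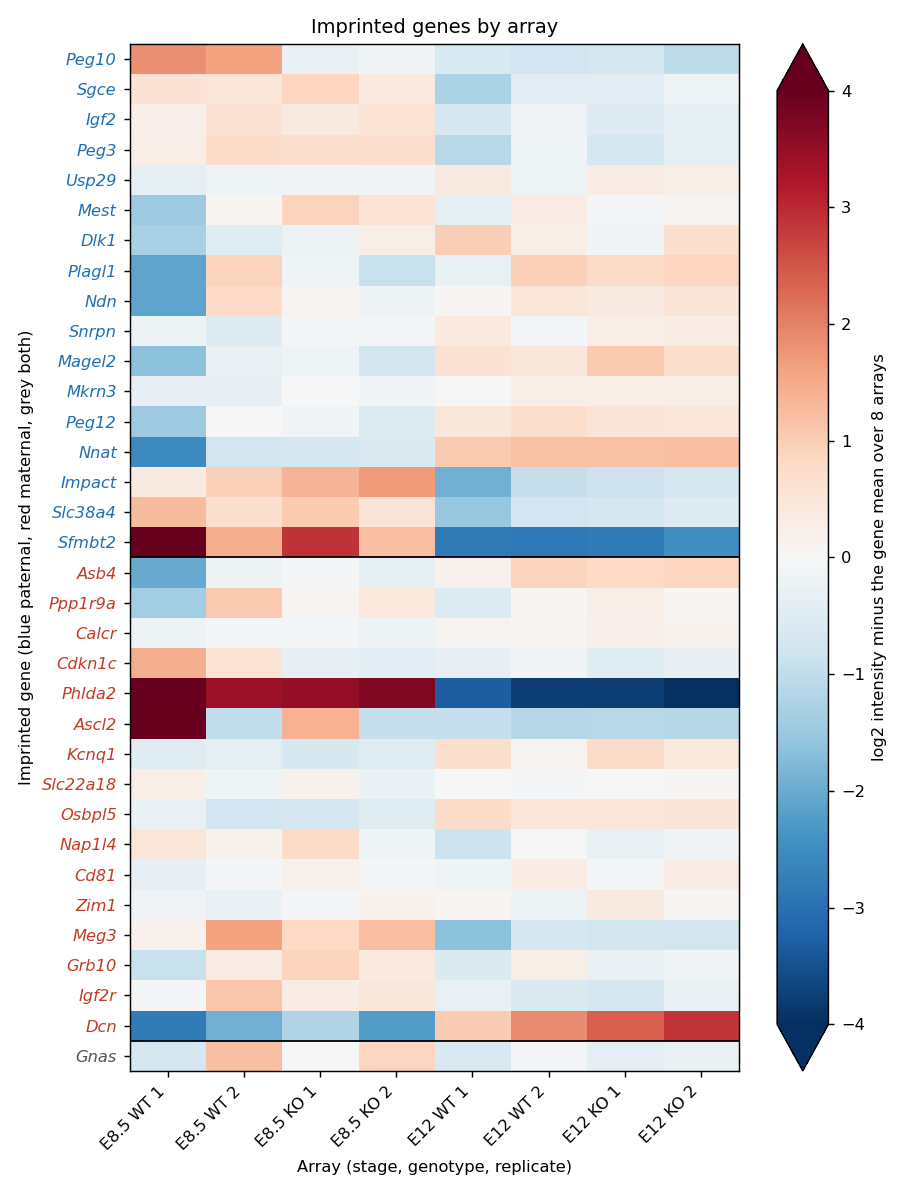
Log2 intensity of each measured imprinted gene (vertical, paternally expressed in blue, maternally expressed in red, Gnas in grey) in each of the 8 arrays (horizontal), minus the mean of that gene over the 8 arrays. Among the E8.5 arrays, wild type replicate 1 stands out as high for Ascl2 and Sfmbt2 and low for Plagl1, Ndn, Nnat and Asb4, and Phlda2 is high in each E8.5 array and low in each E12 array.

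Ascl2, a basic helix-loop-helix factor of trophoblast progenitors, read 10.75 and 4.98 in the E8.5 wild type, 7.35 and 5.01 in the E8.5 knockout, 5.04 and 4.82 in the E12 wild type, and 4.83 and 4.79 in the E12 knockout. It was high in replicate 1 of the E8.5 wild type, intermediate in replicate 1 of the E8.5 knockout and level in the other 6 arrays. Between the wild-type replicates the log2 difference was 5.78. Sfmbt2, a Polycomb group protein needed in trophoblast, read 12.61 and 8.68 in the E8.5 wild type, 10.12 and 8.44 in the E8.5 knockout, 4.41 and 4.38 in the E12 wild type, and 4.44 and 4.78 in the E12 knockout. The same 2 arrays stood highest, but here every E8.5 array was above every E12 array. These 2 arrays also had the highest trophoblast sums, which were 36450 in replicate 1 and 1800 in replicate 2 of the E8.5 wild type, and 4027 and 1795 in the knockout. The part of trophoblast in these values was not tested.

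Opposite to them were members with low values in that array. Plagl1, a zinc finger transcription factor, read 8.01 and 11.01 in the E8.5 wild type and 9.94 and 9.21 in the knockout. Ndn, which encodes the neuronal growth suppressor necdin, read 8.80 and 11.70, then 11.02 and 10.72. Nnat, the proteolipid neuronatin, read 4.95 and 6.75, then 6.81 and 6.91. In each of these genes replicate 1 of the wild type was the lowest of the 4 E8.5 arrays. Mest, Asb4, Ppp1r9a, Gnas, Magel2, Peg12, Meg3, Grb10 and Igf2r made up the rest of the 12 that were lower in it by more than 1. The sum of embryo-proper markers was also lowest in that array, and its part in these values was not tested. The group held paternally and maternally expressed genes alike.

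**Figure D2:**
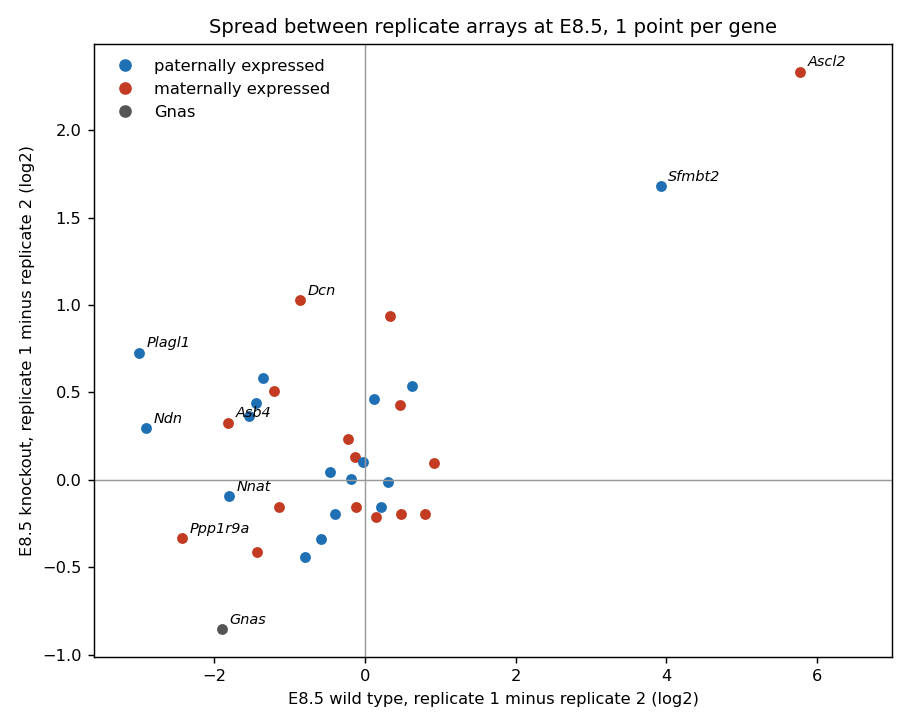
Difference between replicate 1 and replicate 2 at E8.5 (log2) in wild type (horizontal) and knockout (vertical), with 1 point for each imprinted gene, coloured by the expressed allele. Ascl2 and Sfmbt2 lie far to the upper right, higher in replicate 1 of either genotype, and Plagl1, Ndn and Ppp1r9a lie far to the left.

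At E8.5 no member differed between knockout and wild type at an adjusted p under 0.05 in the limma fit, and neither did any of the 45037 probe sets tested (0%). At an unadjusted p under 0.05 there were 4 members (11.8%), Peg10, Cdkn1c, Mest and Impact, against 4.73% of all probe sets. An absolute moderated t above 3, the threshold in the study's methods, with no correction for multiple testing, was passed by 2 members, Peg10 and Cdkn1c, both lower in the knockout, and by 2.06% of all probe sets (1.18% lower and 0.881% higher). The values below are therefore levels and differences, not calls.

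Peg10, a retrotransposon-derived gene required for placental development, read 6.29 and 6.09 in the E8.5 wild type and 4.21 and 4.36 in the knockout. The groups did not overlap, and the replicates of each lay close together. The difference was -1.90 (SE 0.18), with an adjusted p of 0.843 in limma. Peg10 lay at percentile 66.3 to 69.2 of all probe sets in the E8.5 wild type, at 28.2 to 33.1 in the E8.5 knockout and at 5.26 to 13.7 at E12, so its low values may be at background and limit these differences. It ranged from -2.01 to -1.72 over 16 alternative settings (the filter on dim probe sets removed it), and its adjusted p from 0.00551 to 1. The lowest of these p-values came from the fit without replicate 2 of the wild type. Peg10 has 1 probe set here, so no other probe set could be compared. Its levels in the wild-type replicates differed by 1.15-fold. The trophoblast sums of these arrays were 36450 and 1800, and their yolk sac endoderm sums 39090 and 71460. The part of either tissue in the values of Peg10 was not tested. At E12 it read 3.86 and 3.71 in the wild type and 3.77 and 3.43 in the knockout, a difference of -0.18 (SE 0.18, adjusted p = 1 in limma). The knockout effect at E12 minus that at E8.5 was 1.72 (SE 0.26, adjusted p = 1). In that test of the difference between stages no member was called, against 2 of all probe sets (0.00444%), and 1 member, Peg10, had an absolute t over 3 (0.688% of all). At an unadjusted p under 0.05 there were 2, Peg10 and Cdkn1c (1.87% of all), and 16 members had a difference above 0 (54.6% of all). Without replicate 2 of the E8.5 wild type, Peg10, Cdkn1c and Nnat were called in it, and so was 1.59% of all probe sets (718).

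Sgce, the neighbour of Peg10 that shares its control region and encodes a sarcoglycan, differed by 0.09 (SE 0.31, adjusted p = 1 in limma) at E8.5. Its groups overlapped, with 9.06 and 8.94 in the wild type and 9.32 and 8.86 in the knockout. The maternally expressed genes of that cluster did not separate by genotype either. Asb4, an adaptor of a ubiquitin ligase, was 0.86 higher (SE 0.57), Ppp1r9a, the actin-binding protein neurabin, was 0.43 higher (SE 0.72), and Calcr, the calcitonin receptor, differed by -0.01 (SE 0.15). Asb4 and Ppp1r9a turned to -0.04 and -0.79 without replicate 1 of the wild type.

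Cdkn1c, the cyclin-dependent kinase inhibitor p57, read 13.40 and 12.49 in the E8.5 wild type and 11.63 and 11.53 in the knockout. The groups did not overlap, and replicate 1 of the wild type was the highest. The difference was -1.36 (SE 0.30, adjusted p = 0.959 in limma), and without that array it was -0.90 (adjusted p = 0.175). Over 17 alternatives it ranged from -1.82 to -0.90, with adjusted p from 0.00594 to 1. At E12 Cdkn1c read 11.61 and 11.84 in wild type and 11.45 and 11.62 in the knockout, and the groups overlapped. In the same domain Phlda2, a pleckstrin homology protein that restrains placental growth, differed by -0.21 (SE 0.30) at E8.5. Kcnq1, a potassium channel, differed by -0.16 (SE 0.23), with 5.05 and 5.17 in wild type and 4.87 and 5.03 in the knockout. The other members of that domain differed by between -0.09 (Slc22a18, a solute carrier) and 0.25 (Cd81, a tetraspanin), apart from Ascl2 at -1.68 (SE 1.73), whose direction turned to 1.21 without replicate 1 of the wild type.

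Among the members with higher values in the knockout, Mest, a member of the alpha/beta hydrolase family, had the largest difference. It read 9.31 and 10.85 in the wild type and 11.66 and 11.30 in the knockout, a difference of 1.40 (SE 0.50, adjusted p = 1 in limma), and 0.63 without replicate 1 of the wild type. Impact, a regulator of translation, read 8.30 and 8.88, then 9.31 and 9.65, a difference of 0.89 (SE 0.36, adjusted p = 1). Dlk1, a transmembrane ligand of the Delta family, read 5.71 and 6.51, then 6.80 and 7.24, a difference of 0.92 (SE 0.41, adjusted p = 1), and 0.51 without replicate 1 of the wild type. In each of these 3 genes both knockout arrays were above both wild-type arrays, and the lowest of the 4 was the array with the trophoblast markers. Other probe sets did not all go this way, with -0.08 for Dlk1 and with -0.12 and 0.12 for Impact.

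Counted over the list, the knockout and wild-type arrays of E8.5 did not overlap for 13 of the 34 members (38.2%), 10 higher and 3 lower, against 29.2% of all probe sets, of which 13.2% were higher and 16.1% lower. The paternally expressed members were higher in the knockout in 14 of 17 cases, with a median difference of 0.27. The maternally expressed members were higher in 8 of 16, with a median of -0.0036. For all probe sets the median was -0.02, and 46.9% were higher. The paternal median was 0.11 and the maternal median 0.14 without replicate 1 of the wild type, and 18 of the 34 members then kept the direction of their difference. Without replicate 2 of the wild type, 9 members were called (Peg10, Asb4, Ppp1r9a, Cdkn1c, Ascl2, Mest, Ndn, Nnat and Sfmbt2), and so was 4.31% of all probe sets. 

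**Figure D3:**
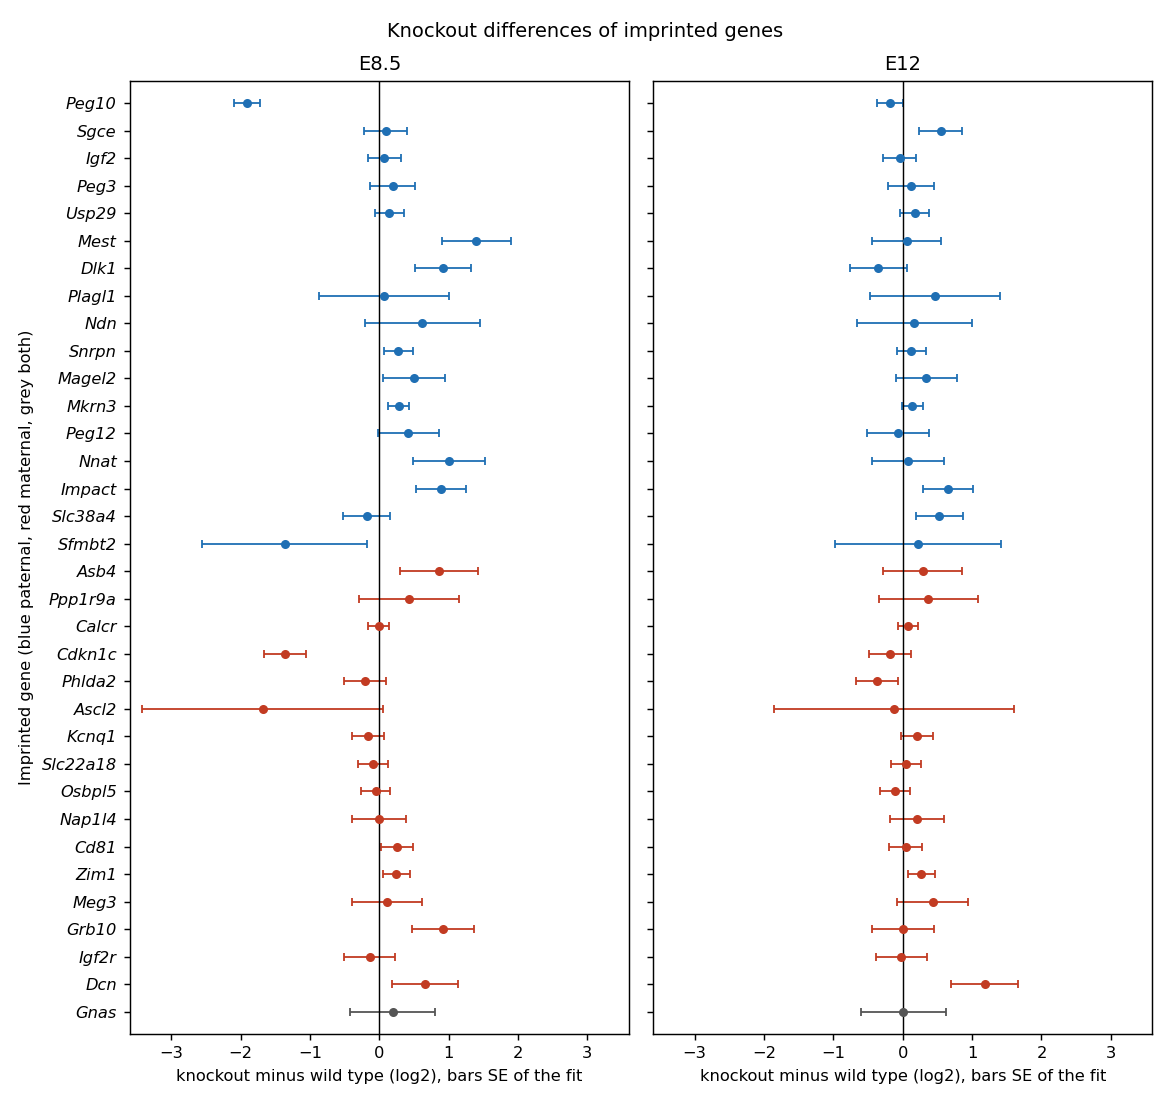
Knockout minus wild type (log2) for each imprinted gene at E8.5 (left) and E12 (right), with bars for the standard error of the fit and 2 arrays in each group. At E8.5 Peg10 (-1.90) and Cdkn1c (-1.36) lie to the left with short bars, Ascl2 and Sfmbt2 have the longest bars, and at E12 Dcn (1.18) lies farthest from 0.

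At E12 no member was called between knockout and wild type in limma, against 6 of all probe sets (0.0133%), all of them lower in the knockout. At an unadjusted p under 0.05 there was 1 member, Dcn, against 1.58% of all probe sets. No member passed an absolute t of 3 (0.655% of all, 0.182% higher and 0.473% lower). Dcn, the proteoglycan decorin of connective tissue, read 7.92 and 8.79 in the wild type and 9.31 and 9.76 in the knockout. Both knockout arrays were above both wild-type arrays, and the difference was 1.18 (SE 0.48, adjusted p = 1), and 0.75 without replicate 1 of the wild type. Impact read 6.01 and 7.01, then 7.11 and 7.22, a difference of 0.66 (SE 0.36, adjusted p = 1), and 0.16 without replicate 1 of the wild type. Slc38a4, an amino acid transporter of the placenta, read 7.18 and 7.91, then 7.97 and 8.18, a difference of 0.53 (SE 0.34, adjusted p = 1), and also 0.16 without that array.

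The groups did not overlap at E12 for 8 members (23.5%), all 8 higher in the knockout, against 28.4% of all probe sets, of which 12.6% were higher and 15.8% lower. Besides Dcn, Impact and Slc38a4 these were Calcr, Slc22a18, Magel2, Mkrn3 and Sfmbt2, with differences of 0.05 to 0.34. Of the 34 members 25 were higher, with a median of 0.12, against 52.5% of all probe sets and a median of 0.01. The paternally expressed members had a median of 0.14 and the maternally expressed ones 0.06. Without replicate 1 of the E12 wild type, 21 of 34 members kept their direction. Igf2, the fetal growth factor, differed by 0.07 (SE 0.24) at E8.5 and by -0.05 (SE 0.24) at E12. Igf2r, the receptor that removes it, differed by -0.14 (SE 0.37) and -0.02 (SE 0.37).

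**Figure D4:**
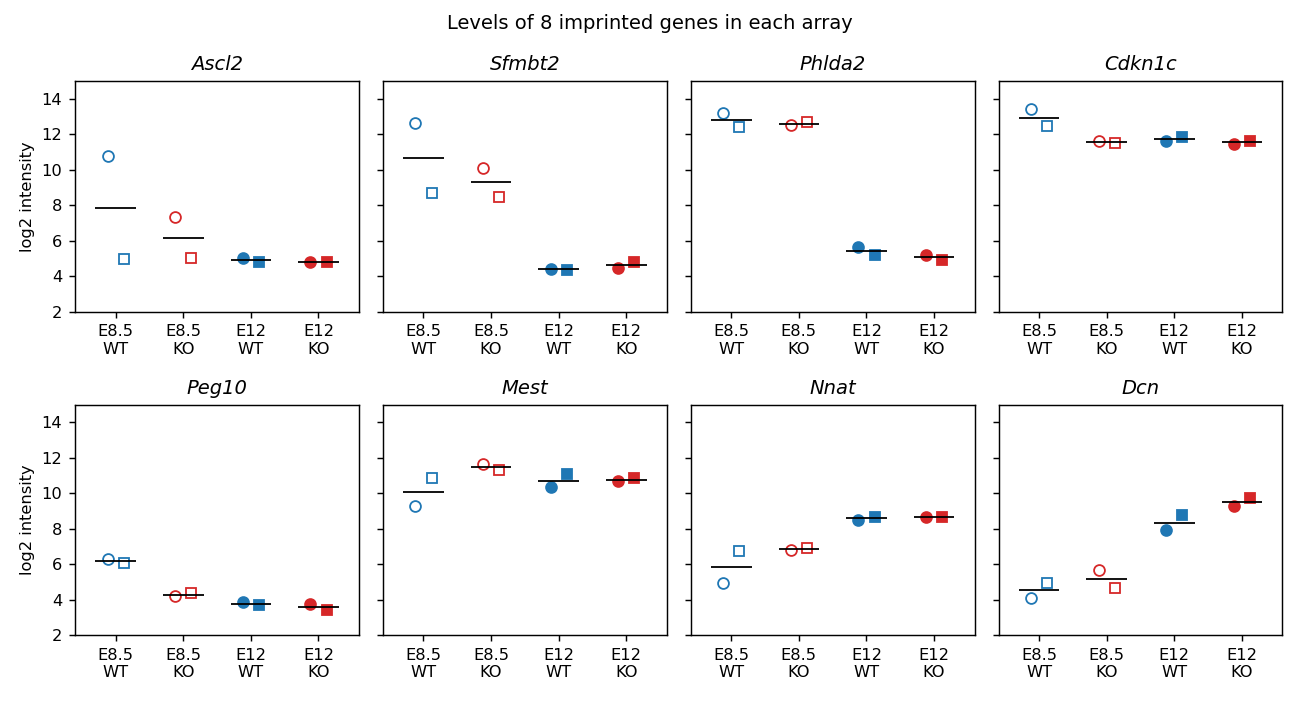
Log2 intensity of 8 imprinted genes in each array, by stage and genotype, with wild type in blue and knockout in red. Open symbols are E8.5, filled symbols E12, circles replicate 1, squares replicate 2, and lines the mean of 2 arrays. Phlda2 lies above 12 in all E8.5 arrays and below 6 in all E12 arrays, Ascl2 and Sfmbt2 are spread within the E8.5 groups, and Peg10 separates the genotypes at E8.5.

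In wild type 15 of the 34 members were called (44.1%), against 27.8% of all probe sets. Of these, 6 were higher at E12 (Dcn, Nnat, Osbpl5, Dlk1, Kcnq1 and Magel2), where 12.1% of all were called higher, and 9 were lower (Phlda2, Peg10, Slc38a4, Impact, Sfmbt2, Sgce, Cdkn1c, Meg3 and Peg3), where 15.7% of all were called lower. In the knockout 12 members were called (35.3%), against 25.6% of all probe sets. The 4 higher ones were Dcn, Kcnq1, Osbpl5 and Nnat (11.6% of all higher), and the 8 lower ones were Phlda2, Impact, Slc38a4, Sfmbt2, Igf2, Peg10, Peg3 and Meg3 (14.1% of all lower). The genotypes shared 11 of these calls, each in the same direction, which is 73.3% of the wild-type calls and 91.7% of the knockout calls. For all probe sets the shared calls were 75.7% and 82.1%. The stages did not overlap for 23 members in wild type (11 higher and 12 lower at E12), against 61.4% of all probe sets (30.7% higher and 30.7% lower). In the knockout this held for 27 members (13 higher and 14 lower), against 74.7% (38.7% higher and 36% lower). At any p, 18 members were higher at E12 in wild type (49.5% of all probe sets) and 17 in the knockout (52.1%).

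These calls rested on few arrays. The calls over all probe sets also fell in each of the fits named next, and the last paragraph gives their range. Without replicate 1 of the E12 wild type 5 members stayed called in wild type, Phlda2, Peg10, Slc38a4, Impact and Dcn, and without any 1 knockout array 9 did. In the knockout 2 members stayed called, Phlda2 and Dcn, without replicate 2 of E8.5 or either replicate of E12, and 3 without replicate 1 of E8.5, Impact being the third.

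Whether a member was called higher or lower depended on the scaling for part of the list. With quantile normalization over all arrays, the wild-type calls were 10 higher and 5 lower, and with each array centred on its median 4 higher and 10 lower, against 6 and 9 as deposited. In the knockout they were 8 and 4, then 3 and 9, against 4 and 8. Among the calls over all probe sets, 43.6% were higher in wild type as deposited, 53.8% after quantile normalization and 29.5% after centring, and in the knockout 45.1%, 52.5% and 28.3%. Centring moved the median stage difference of all probe sets to -0.20 in wild type and -0.18 in the knockout. Members called in both genotypes under all 3 scalings were 6, of which Phlda2, Peg10, Impact and Sfmbt2 fell and Osbpl5 and Dcn rose. At any p, 22 members kept their sign in both genotypes under all 3 scalings, 14 of them higher at E12 and 8 lower. For neither count was the share of all probe sets taken, so they are not read against it. Under a single scaling, 10 or 11 members were called in both genotypes in the same direction, against 14.1% to 21.4% of all probe sets.

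Phlda2 had the largest difference of all members. It read 13.20 and 12.41 in the E8.5 wild type, 12.49 and 12.69 in the E8.5 knockout, 5.67 and 5.20 in the E12 wild type, and 5.21 and 4.92 in the E12 knockout. All E8.5 arrays were high, and at E12 the gene lay near the median of all probe sets, which was 5.16 to 5.20. Trophoblast sums were 1795 to 36450 in the E8.5 arrays and 601 to 771 in the E12 arrays. It fell by 7.37 (SE 0.30) in wild type, with an adjusted p of 0.000285 in limma. In the knockout it fell by 7.53 (SE 0.30), with an adjusted p of 0.000217. The fall held in all 16 alternatives of each genotype, between 6.65 and 7.76 in size. Yolk sac endoderm markers (14 of 15 measured) moved with it, their sum being 39090 to 76250 in the E8.5 arrays and 3352 to 4411 in the E12 arrays. Cubn, the cubilin receptor of visceral endoderm, read 12.99 to 13.35 in the former and 3.87 to 4.26 in the latter. The 12 decidual markers did not move one way. In wild type 4 were called higher at E12 (Wnt4, Hoxa10, Hoxa11 and Adamts5) and 2 lower (Prl8a2 and Bmp2). In the knockout 2 were called higher (Wnt4 and Adamts5) and the same 2 lower. Prl8a2 read 6.903 to 8.492 in the E8.5 arrays and 4.008 to 4.759 in the E12 arrays. Its adjusted p in limma was 0.00329 in wild type and 0.00229 in the knockout, so this decidual marker fell along with Phlda2. The parts of yolk sac, trophoblast and decidua in the level of Phlda2 were not tested.

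Genes of the Kcnq1 domain were called in opposite directions. Of its 8 measured members Phlda2 and Cdkn1c were called lower in wild type, and Kcnq1 and Osbpl5 higher. In the knockout Phlda2 was called lower and Kcnq1 and Osbpl5 higher. Osbpl5, an oxysterol-binding protein, read 5.16, 4.68, 4.77 and 4.96 in the E8.5 arrays and 6.16, 5.90, 5.90 and 5.94 at E12, in the order wild type then knockout. It rose by 1.11 (SE 0.21, adjusted p = 0.0115 in limma) in wild type and by 1.05 (SE 0.21, adjusted p = 0.0148) in the knockout. Kcnq1 read 5.05, 5.17, 4.87 and 5.03 at E8.5 and 6.20, 5.64, 6.29 and 5.95 at E12. It rose by 0.81 (SE 0.23, adjusted p = 0.0439) and 1.17 (SE 0.23, adjusted p = 0.0145), but its wild-type call was lost in 14 of 16 alternatives. Cdkn1c gave a stage difference of -1.22 in wild type (adjusted p = 0.0266) as deposited and of 0.34 after quantile normalization (adjusted p = 0.488). Slc22a18, Nap1l4, a histone chaperone, and Cd81 were not called in either genotype as deposited. Nap1l4 had stage differences of -0.70 and -0.50 (wild type, then knockout). Ascl2 had differences of -2.94 (SE 1.73, adjusted p = 0.256) and -1.37 (SE 1.73, adjusted p = 0.608), and its wild-type stages overlapped.

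Sfmbt2 fell by 6.25 (SE 1.19, adjusted p = 0.0119 in limma) in wild type and fell by 4.67 (SE 1.19, adjusted p = 0.0324) in the knockout. Without replicate 1 of the E8.5 wild type the difference was -4.29. Its E12 arrays lay at percentile 28.7 to 39.3 of all probe sets. Peg10 fell by 2.40 (SE 0.18, adjusted p = 0.00109) in wild type and fell by 0.68 (SE 0.18, adjusted p = 0.0386) in the knockout. The difference between these falls is the test between stages given above for Peg10, which did not pass. Its E8.5 knockout arrays lay at percentile 28.2 to 33.1 of all probe sets and its E12 arrays at 5.26 to 13.7. The fall of Peg10 in the knockout may therefore lie within background. Sgce read 7.19 and 8.03 in the E12 wild type and 8.02 and 8.29 in the E12 knockout, below all of its E8.5 arrays. Its difference was -1.39 (SE 0.31, adjusted p = 0.0197) in wild type and -0.93 (SE 0.31, adjusted p = 0.0719) in the knockout, and the wild-type call was lost after quantile normalization (-0.68, adjusted p = 0.137).

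Impact read 8.30, 8.88, 9.31 and 9.65 at E8.5 and 6.01, 7.01, 7.11 and 7.22 at E12, so that all E8.5 arrays were above all E12 arrays. It fell by 2.08 (SE 0.36, adjusted p = 0.00881 in limma) in wild type and fell by 2.31 (SE 0.36, adjusted p = 0.00693) in the knockout. Slc38a4 read 9.97, 9.34, 9.74 and 9.21 at E8.5 and 7.18, 7.91, 7.97 and 8.18 at E12, and its stages did not overlap. It fell by 2.11 (SE 0.34, adjusted p = 0.00703) in wild type and fell by 1.40 (SE 0.34, adjusted p = 0.0272) in the knockout. The knockout call of Slc38a4 was lost after quantile normalization (-0.60, adjusted p = 0.208).

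Dcn had the largest rise. It read 4.11 and 4.97 in the E8.5 wild type, 5.71 and 4.69 in the E8.5 knockout, 7.92 and 8.79 in the E12 wild type, and 9.31 and 9.76 in the E12 knockout. All E12 arrays were above all E8.5 arrays, and the E12 knockout arrays were the highest. It rose by 3.81 (SE 0.48, adjusted p = 0.00355 in limma) in wild type and by 4.34 (SE 0.48, adjusted p = 0.00264) in the knockout. Nnat read 4.95, 6.75, 6.81 and 6.91 at E8.5 and 8.53, 8.68, 8.67 and 8.69 at E12. It rose by 2.75 (SE 0.52, adjusted p = 0.0115) in wild type and by 1.82 (SE 0.52, adjusted p = 0.0457) in the knockout, although the knockout call was lost with centred arrays (1.61, adjusted p = 0.0621). Without replicate 1 of the E8.5 wild type, where it was lowest, the wild-type difference was 1.85.

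**Figure D5:**
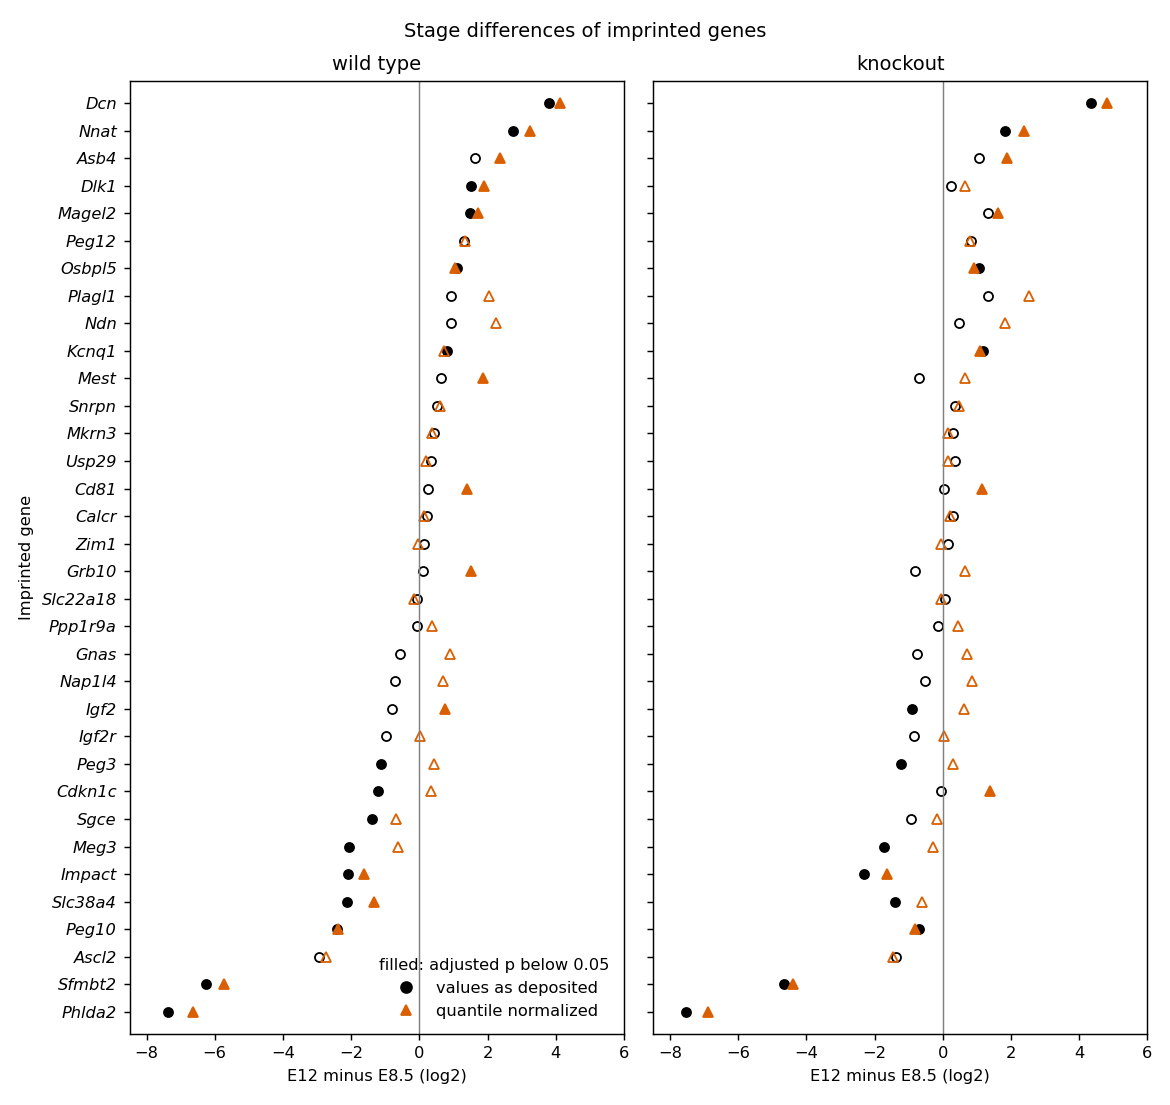
E12 minus E8.5 (log2) for each imprinted gene in wild type (left) and knockout (right), with the values as deposited (black circles) and after quantile normalization (orange triangles), filled where the adjusted p was under 0.05. Phlda2, Sfmbt2, Peg10 and Impact lie left of 0 and Dcn, Nnat and Osbpl5 right of 0 by both, while Igf2, Peg3, Cdkn1c, Gnas, Nap1l4, Igf2r and Ppp1r9a change sides in both genotypes.

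In the Prader-Willi cluster, whose 5 measured members are paternally expressed, 1 was called, Magel2, a MAGE family protein. It read 4.95, 6.31, 6.42 and 5.84 at E8.5 and 7.17, 7.05, 7.62 and 7.28 at E12, and was higher by 1.48 (SE 0.44, adjusted p = 0.0495 in limma) in wild type and by 1.32 (adjusted p = 0.0731) in the knockout. Peg12, a Frat family gene, differed by 1.31 and 0.83, Ndn by 0.93 and 0.48, Snrpn, a splicing protein, by 0.51 and 0.36, and Mkrn3, a makorin, by 0.44 and 0.30, none of them called. Without replicate 1 of the E8.5 wild type, the wild-type difference of Ndn turned to -0.52, that of Peg12 was 0.59 and that of Magel2 0.80. The wild-type call of Magel2 was kept in 6 of 16 alternatives, with adjusted p from 0.00282 to 0.188. Dlk1 read 7.98 and 7.28 in the E12 wild type and 6.90 and 7.66 in the E12 knockout. It was higher than at E8.5 by 1.52 (SE 0.41, adjusted p = 0.0348) in wild type and by 0.25 (SE 0.41, adjusted p = 0.691) in the knockout. The wild-type call of Dlk1 was kept in 7 of 16 alternatives, with adjusted p from 0.0147 to 0.178. The difference between the genotypes was -1.27 (SE 0.57, adjusted p = 1).

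For Igf2 and several other members the stage direction changed with the scaling. Igf2 read 12.08 and 12.49 in the E8.5 wild type, 12.26 and 12.46 in the E8.5 knockout, 11.22 and 11.76 in the E12 wild type, and 11.37 and 11.52 in the E12 knockout. Its E8.5 arrays were above its E12 arrays, and the difference was -0.79 (SE 0.24, adjusted p = 0.0509 in limma) in wild type and -0.91 (SE 0.24, adjusted p = 0.0352) in the knockout. Within each array, however, it ranked at percentile 98.8 to 99.2 in the E8.5 arrays and 99.5 to 99.6 in the E12 arrays. After quantile normalization it was higher at E12, by 0.74 (adjusted p = 0.0264) in wild type and 0.61 (adjusted p = 0.0511) in the knockout. Peg3, a zinc finger protein, read 12.39, 12.86, 12.84 and 12.80 at E8.5 and 11.03, 11.95, 11.44 and 11.78 at E12. It was called lower in both genotypes as deposited (-1.14 and -1.21) and was higher by 0.43 and 0.31 after quantile normalization, without a call. Meg3, a long non-coding RNA, read 11.62, 13.06, 12.25 and 12.66 at E8.5 and 9.82, 10.76, 10.73 and 10.71 at E12. Its E8.5 arrays were above its E12 arrays. It was called lower (-2.05 and -1.74) and kept its sign after quantile normalization (-0.63 and -0.28) without a call. Igf2r read 9.06, 10.20, 9.41 and 9.57 at E8.5 and 8.80, 8.52, 8.44 and 8.84 at E12. Grb10, an adaptor that restrains insulin-type receptors, read 10.56, 11.77, 12.34 and 11.83, then 10.86, 11.67, 11.19 and 11.35, and its stages overlapped. Mest read 10.36, 11.08, 10.69 and 10.86 at E12, within the range of its E8.5 arrays, and Plagl1 read 9.81, 11.08, 10.86 and 10.95. Gnas, Nap1l4, Igf2r and Ppp1r9a, none of them called as deposited by the probe set used here, changed sign after quantile normalization in both genotypes, and Mest and Grb10 did so in the knockout. Zim1 in both genotypes, Grb10 in wild type, and Slc22a18 and Cd81 in the knockout changed sign under at least 1 of these scalings, from differences of 0.05 to 0.16 as deposited.

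Zim1 and Usp29, a zinc finger gene and a ubiquitin protease of the Peg3 cluster, and Calcr and Plagl1 were not called in any comparison of the deposited values over all 8 arrays by the probe set used here. Other probe sets of a gene sometimes gave a call between stages. Both remaining probe sets of Plagl1 were called higher at E12, by 1.61 (adjusted p = 0.00397 in limma) and 1.09 (adjusted p = 0.0204) in wild type and by 1.85 (adjusted p = 0.00285) and 1.03 (adjusted p = 0.0267) in the knockout. The other probe set of Igf2r was called lower, with differences of -0.78 (adjusted p = 0.0221) and -0.94 (adjusted p = 0.0132). A further probe set was called higher for Asb4 in wild type (adjusted p = 0.0464) and for Usp29 in the knockout (adjusted p = 0.0349), and lower for Ppp1r9a in wild type (adjusted p = 0.0342). Peg3 has 5 probe sets and Meg3 11, and only the probe set used here was called (lower) in either genotype. Some of the others had differences above 0 in each genotype. With the mean of all probe sets of a gene, Peg3 and Meg3 lost their calls in both genotypes. The other probe set of Dcn, which read 4.25 to 4.59, differed by 0.11 and 0.18 without a call. Those of Sfmbt2 (-3.07 and -2.65), Slc38a4 (-2.55 and -1.39) and, in wild type, Sgce (-0.91) and Dlk1 (0.43) were not called. Nor was that of Igf2 in the knockout (-0.12). A further probe set of Impact was called lower in both genotypes (-0.94 and -0.78). Split by the expressed allele, 3 paternally expressed members were called higher and 6 lower in wild type, and 3 maternally expressed members higher and 3 lower. In the knockout it was 1 and 6 for the paternally expressed members and 3 and 2 for the maternally expressed ones. The paternal median was 0.44 in wild type and 0.25 in the knockout, the maternal median 0.02 and -0.0007, and the median of all probe sets -0.0070 and 0.03. Without replicate 1 of the E8.5 wild type the paternal median in wild type was -0.52, so its sign changed when that array was left out. Over all 34 members the median was 0.12 in wild type and -0.0007 in the knockout as deposited, 0.51 and 0.54 after quantile normalization, and -0.07 and -0.21 with centred arrays.

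Related genes gave the following counts. Of 45 other imprinted genes 37 were measured, and in wild type 7 were called higher and 7 lower at E12 (37.8%, against 27.8% of all probe sets), in the knockout 6 and 5 (29.7%, against 25.6%), with none called between genotypes at either stage. Ano1, a chloride channel, rose by 1.49 and 1.52, and Rasgrf1, a guanine nucleotide exchange factor, rose by 1.13 and 0.80 (wild type, then knockout). Kcnq1ot1, the antisense RNA of the Kcnq1 domain, had differences of -1.29 (adjusted p = 0.00959 in limma) and -0.62 (adjusted p = 0.0954). Atp10a, a phospholipid flippase, read 8.64 in replicate 1 of the E8.5 wild type and at most 5.44 in the rest of the stage, and Gab1, a docking protein of growth factor receptors, read 11.08 against at most 9.73. These genes, named after their values were seen, were highest in the array in which Ascl2 and Sfmbt2 were highest.

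Of the insulin-like growth factor axis 16 of 17 genes were measured. In wild type 5 were called higher and 0 lower (31.2%, against 27.8% of all probe sets), and in the knockout 2 and 0 (12.5%, against 25.6%). Igfbp3, a carrier of these factors, rose by 2.73 and 2.64, and Igf1 was higher by 2.81 (adjusted p = 0.0255 in limma) and 2.11 (adjusted p = 0.0662). Of a list of genes that act on DNA methylation or chromatin at imprints, 20 of 21 were measured. The list mixes genes that write or keep methylation with Tet1, Tet2 and Tet3, which oxidise methylated cytosine. In wild type 0 were called higher and 9 lower, where 15.7% of all probe sets were called lower. In the knockout 1 was called higher (Tet3, by 1.25) and 8 lower, where 14.1% were called lower. Dnmt3b, a de novo DNA methyltransferase, read at least 10.62 in the E8.5 arrays and at most 6.81 in the E12 arrays, and Tet1, which oxidises methylated cytosine, had differences of -1.86 and -1.53, called in both genotypes. Neither list had a member called between the genotypes, where 0% of all probe sets were called at E8.5 and 0.0133% at E12.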

How the data were processed

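Affymetrix whole-genome mouse arrays measured amplified total RNA of embryo propers. The authors normalized the probe intensities and summarized them for each probe set by Robust Multi-array Analysis (RMA), and deposited them as linear intensities. The sources used here do not say whether the 8 arrays were normalized jointly. Deposited intensities were converted to log2 without a pseudocount. From 45101 probe sets the 64 controls were removed, which left 45037 for testing, and dim probe sets were kept. The number of arrays limits the precision.

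Probe sets were named from the platform annotation, with symbols brought up to date through RefSeq (GRCm38.p6). By this route 34945 probe sets had 1 symbol, 932 several and 9160 none. Differences were fitted in limma 3.58.1 (R 4.3.3) with lmFit and eBayes, a mean for each group and all 8 arrays together, and called below 0.05 after Benjamini-Hochberg adjustment across the tested probe sets. The fit was tested on simulated data. An absolute t above 3, from the study's methods, was a second rule. Values per array were given for members past a threshold in a knockout comparison or, with fewer than 3 in a direction, the first 3 by absolute t whose groups did not overlap, for the first 6 called each way in a stage comparison, for Igf2 and other fixed genes, while Ndn was added after its values were seen. Alternatives were quantile normalization, centring, a filter on dim probe sets, a replicate block, an intensity trend, array weights, the mean of all probe sets of a gene, the arrays of 1 stage and leaving out each array. The members and gene lists were chosen with earlier results of these data known.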

Additional observations from a re-analysis of the deposited data

How the results depend on the processing

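The number of members called in the knockout at E12 was 0 under every alternative run, including each array left out in turn (0 to 0). For the knockout at E8.5 leaving out 1 array gave 0 to 9 members, and 9 only without replicate 2 of the wild type, which leaves the array with trophoblast markers alone. For the stage difference of wild type leaving out 1 array gave 5 to 20 members, the lowest without replicate 1 of the E12 wild type, and for that of the knockout 2 to 17. For the difference of the knockout effect between stages it gave 0 to 3. Where a group keeps 1 array, that array is assumed to vary like the other groups. Array weights gave 10 members in wild type and 18 in the knockout. Igf2 in the knockout changed from -0.91 to 0.61 between stages under quantile normalization. With the replicate number as a block the counts were 0, 0, 14, 12 and 0 (knockout at E8.5, at E12, stage in wild type, in knockout, difference). The shares of all probe sets called were then 0%, 0.00444%, 27.3%, 25% and 0%. The labels do not say that the replicate numbers pair samples. The replicate differences of wild type and knockout had a correlation across all probe sets of 0.372 for E8.5 and 0.173 for E12. Without both E8.5 arrays numbered 1, an alternative chosen after seeing the data, the counts were 0, 0, 16, 14 and 0. Over all probe sets the stage calls were 12525 in wild type and 6122 to 14204 without 1 array (7971 with array weights), and 11539 in the knockout and 2323 to 16078 (19889). The knockout calls at E8.5 were 0 to 1942, those at E12 6 and 0 to 12, and the difference between stages 2 and 0 to 718. The causes were not tested.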
